A study of Mus musculus with 6 samples.

Results

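Kupffer cells, the resident macrophages of the liver, were followed here through 10 genes in RNA from mouse hepatic stellate cell preparations. The genes were Vsig4, Clec4f, Cd5l, Timd4, Marco and Cd163, the 3 subunit genes of complement C1q (C1qa, C1qb and C1qc) and Nr1h3. A member was the probe set annotated with that single gene symbol, and where a gene had several such probe sets the one with the highest mean would have stood for it. Each of the 10 had 1 probe set, out of 22180 genes with a probe set naming a single gene, and 9 of the 10 passed the filter on low signal that left 15526 genes for testing. Cd163, the tenth, averaged below that filter, a mean log2 signal of 4.70, and is given by its values.

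There were 6 arrays, 1 for each combination of age and state, each made from a pool of cells of 5 mice. PRI-724 cells were stellate cells kept in culture for over 20 days and given C-82, the active form of PRI-724, at 10 µM in DMSO, from old mice (6 to 9 months) or young mice (8 to 11 weeks). C-82 keeps beta-catenin from binding its coactivator CBP. Vehicle cells were cultured for the same span without C-82, and quiescent cells were taken 12 h after plating from normal liver, again from old or from young mice. All were primary cells grown on uncoated plastic in serum-containing medium. The time of exposure to C-82, the strain and sex of the mice, and any step that removed macrophages were not stated in the sources used here. All levels below are deposited log2 signals, so a difference of 1 is a 2-fold difference, and levels are compared only within a gene.

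The young PRI-724 array stood apart, with an interquartile range of 1.71 log2 units over the tested genes, against 2.11 to 2.43 on the other 5 arrays. Whether a signal lay above background was not tested for any gene. Des, the intermediate filament desmin of stellate cells, had 9.26 and 8.05 in old and young PRI-724 cells, 8.99 and 9.41 in old and young vehicle cells, and 7.16 and 6.47 in old and young quiescent cells. Alb, the albumin of hepatocytes, had 10.22 and 8.96 in old and young PRI-724 cells, 10.07 and 7.02 in old and young vehicle cells, and 11.95 and 9.32 in old and young quiescent cells. State differences were tested with limma on a model of age and state. Since every group has 1 array, the error of a state difference came from the disagreement between old and young cells over the 3 states. In limma that error was drawn toward the value typical of genes of like signal. Every value after ± is this moderated standard error (SE), not the spread of the old and young pairs. Nothing in the labels gives separate cultures within a group. The arrays hold RNA of all cells in a dish, so fewer macrophages and less RNA of a gene per macrophage cannot be told apart.

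Kupffer cells seed the liver before birth, sit in the sinusoids next to endothelium and stellate cells, and clear bacteria, debris and aged blood cells. Their identity is kept by a set of transcription factors, among them the liver X receptor LXR-alpha, which Nr1h3 encodes, and by signals from neighbouring cells. Vsig4 encodes a receptor for fragments of complement C3, Marco and Cd163 encode scavenger receptors, Clec4f encodes a C-type lectin found in mouse on Kupffer cells, Timd4 encodes the phosphatidylserine receptor TIM-4 that takes up dying cells, and Cd5l encodes a secreted, scavenger-receptor-type protein also called AIM. C1q is the recognition molecule that starts the classical complement pathway, and macrophages are its main source. Its A, B and C chains come from separate genes that are neighbours in the RefSeq table of mouse assembly GRCm38.p6.

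Promoter windows are shown for 4 of the 5 members called lower with PRI-724 relative to vehicle, all but Marco. Each runs from 250 bases before to 50 bases after the RefSeq start, 5′ to 3′ on the gene's own strand, with motif matches in capitals. In GRCm38.p6 the Vsig4 window is chrX:96293389-96293688 on the minus strand, that of Cd5l chr3:87357631-87357930 on the plus strand, that of C1qb chr4:136886151-136886450 on the minus strand and that of C1qc chr4:136892865-136893164 on the minus strand.
Vsig4: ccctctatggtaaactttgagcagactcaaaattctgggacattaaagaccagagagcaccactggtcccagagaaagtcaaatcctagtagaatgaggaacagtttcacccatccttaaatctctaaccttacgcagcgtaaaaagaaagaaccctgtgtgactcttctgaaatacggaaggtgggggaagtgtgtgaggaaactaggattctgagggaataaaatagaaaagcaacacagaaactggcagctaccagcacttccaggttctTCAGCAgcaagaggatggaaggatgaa
Cd5l: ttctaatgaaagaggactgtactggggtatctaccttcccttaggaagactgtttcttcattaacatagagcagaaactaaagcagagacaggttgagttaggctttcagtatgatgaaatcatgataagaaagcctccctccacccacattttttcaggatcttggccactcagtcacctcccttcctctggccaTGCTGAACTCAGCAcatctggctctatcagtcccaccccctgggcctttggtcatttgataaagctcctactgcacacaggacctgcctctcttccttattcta
C1qb: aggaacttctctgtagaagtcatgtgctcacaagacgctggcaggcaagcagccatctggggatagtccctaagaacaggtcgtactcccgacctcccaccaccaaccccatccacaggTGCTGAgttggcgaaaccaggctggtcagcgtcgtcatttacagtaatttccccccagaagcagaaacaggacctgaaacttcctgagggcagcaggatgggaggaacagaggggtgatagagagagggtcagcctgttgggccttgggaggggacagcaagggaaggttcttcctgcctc
C1qc: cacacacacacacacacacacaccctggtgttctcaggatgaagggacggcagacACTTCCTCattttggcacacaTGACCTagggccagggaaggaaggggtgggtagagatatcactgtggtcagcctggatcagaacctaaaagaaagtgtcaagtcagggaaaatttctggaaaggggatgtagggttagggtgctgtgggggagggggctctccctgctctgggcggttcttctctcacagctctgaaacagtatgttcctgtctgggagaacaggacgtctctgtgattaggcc
The motifs, searched on both strands, were TGCTGA, a core recognised by MAF factors, GAGGAAGT, a core for PU.1, AGGTCA, a core for nuclear receptors, CACGTG, the E-box, and TATAAA, the TATA box. The tables held windows for 9 of the 10 members, all but C1qa. TGCTGA was found in 5 of these 9, namely Vsig4, Cd5l, C1qb, Clec4f and Timd4, and in 19.1% of all 27025 promoters of the same length. AGGTCA was found in 3 (C1qc, Clec4f and Timd4; 16.0% of all promoters), GAGGAAGT in 1 (C1qc; 3.28%), and CACGTG and TATAAA in 0 of the 9, against 7.24% and 14.2% of all promoters. The Cd5l window holds 2 of the MAF cores facing each other at -54 to -41, the palindrome TGCTGANNTCAGCA, which 2 of the 27025 promoters contain. The palindrome was looked up after the Cd5l sequence had been seen, and it contains both of that window's TGCTGA matches. In the Vsig4 window the core lies at 23 to 28 after the start. The Marco window, not shown, held none of the motifs searched. A match describes these letters in these windows and nothing more.

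In long-cultured cells given PRI-724, several of the macrophage identity genes were lower than with vehicle. Of the 9 tested members 5 fell, namely Cd5l, Vsig4, Marco, C1qb and C1qc, and 0 rose (limma, Benjamini-Hochberg adjusted p under 0.05), with falls of 3.92-fold to 35.3-fold. Over all 15526 genes, 1.93% were called lower and 0.271% higher. The median difference of the 9 members was -1.97 log2 units, and that of all tested genes -0.05. Of all 10 members, 8 were lower in both ages, and Timd4 and Cd163 went in opposite directions in old and young cells. Of the 15526 tested genes 5435 were lower in both ages, 4009 higher in both and 6069 opposite. At least 2-fold lower in both ages were 6 members, among 366 of the 15526 tested genes.

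Vsig4 and Marco fell, and Cd163 was dim throughout. Vsig4 had 4.35 and 3.61 in old and young PRI-724 cells, 8.88 and 9.25 in old and young vehicle cells, and 7.82 and 7.15 in old and young quiescent cells. Both PRI-724 arrays lay well below the other 4, and both vehicle arrays lay above both quiescent ones. Vsig4 fell by 5.08 ± 0.33 log2 units with PRI-724 relative to vehicle (moderated SE, 2 pairs in a fit to 6 arrays). The fall was 33.9-fold, with a 95% interval of -5.82 to -4.35 log2 units (limma, adjusted p = 0.00054). Vsig4 ranked 1 by p-value among all tested genes. The difference was -4.53 in the old pair and -5.64 in the young pair. Its level with PRI-724 lay under 4.70 on both arrays, and no detection calls were used here, so whether it was above background was not tested.

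Marco, the scavenger receptor that binds bacteria, had 5.31 and 5.65 in old and young PRI-724 cells, 8.31 and 8.94 in old and young vehicle cells, and 10.74 and 8.06 in old and young quiescent cells. The PRI-724 arrays were the lowest at both ages, and the old quiescent array was the highest of all 6. Marco fell by 3.14 ± 0.65 with PRI-724 relative to vehicle (limma, adjusted p = 0.0397), an 8.82-fold fall, with -2.997 in the old pair and -3.28 in the young pair. This call was lost after cyclic loess (adjusted p = 0.196) and quantile normalization (0.189), with no age in the model (0.118) and when the lowest 50% of genes were dropped (0.0534).

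Cd163, the receptor for haemoglobin bound to haptoglobin, had 4.38 and 4.69 in old and young PRI-724 cells, 4.566 and 4.197 in old and young vehicle cells, and 4.92 and 4.83 in old and young quiescent cells. Both quiescent arrays were the highest, and PRI-724 and vehicle values overlapped. With no filter on signal its PRI-724 minus vehicle difference was 0.16 ± 0.27 (limma, adjusted p = 0.831).

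Cd5l, the secreted protein that binds lipids and pathogens, had 5.42 and 4.26 in old and young PRI-724 cells, 9.39 and 10.57 in old and young vehicle cells, and 10.49 and 9.28 in old and young quiescent cells. The 2 PRI-724 arrays were separated from the other 4, among which vehicle and quiescent values interleaved. With PRI-724 relative to vehicle it fell by 5.14 ± 0.51 or 35.3-fold (limma, adjusted p = 0.00171), with -3.97 in the old pair and -6.31 in the young pair. Its level on the young PRI-724 array lay under the 4.70 of the filter on mean signal, and whether it was above background there was not tested.

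Clec4f, the Kupffer cell lectin, had 6.04 and 6.80 in old and young PRI-724 cells, 8.32 and 7.25 in old and young vehicle cells, and 9.42 and 8.82 in old and young quiescent cells. The 3 states were fully ordered, PRI-724 below vehicle below quiescent. The PRI-724 minus vehicle difference was -2.28 in the old pair and -0.45 in the young pair, and the mean of -1.36 ± 0.41 (95% interval -2.27 to -0.46) did not pass the threshold (limma, adjusted p = 0.139). With only the arrays of these 2 states in the fit it did (0.00827), and it also did without the young vehicle array (-1.94, 0.0196), without the old quiescent array (0.0119) and without the young quiescent array (0.0120).

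Timd4, a marker of long-lived resident macrophages, had 4.71 and 4.93 in old and young PRI-724 cells, 4.97 and 4.77 in old and young vehicle cells, and 5.10 and 6.75 in old and young quiescent cells. Only the young quiescent array carried a high value. In long culture the level was low with or without C-82, and the difference was -0.05 ± 0.39 (95% interval -0.92 to 0.83; limma, adjusted p = 0.970).

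The 3 C1q genes had a like order of levels. C1qb had 6.44 and 6.05 in old and young PRI-724 cells, 8.73 and 9.33 in old and young vehicle cells, and 9.80 and 9.24 in old and young quiescent cells. C1qc had 5.05 and 5.34 in old and young PRI-724 cells, 6.91 and 7.42 in old and young vehicle cells, and 7.56 and 7.01 in old and young quiescent cells. C1qa had 6.04 and 6.68 in old and young PRI-724 cells, 7.82 and 7.90 in old and young vehicle cells, and 8.22 and 7.65 in old and young quiescent cells. In all 3 subunits both PRI-724 arrays lay below the other 4, whose vehicle and quiescent values overlapped. C1qb fell by 2.79 ± 0.33 or 6.89-fold with PRI-724 relative to vehicle (limma, adjusted p = 0.00344), and C1qc fell by 1.97 ± 0.31 or 3.92-fold (limma, adjusted p = 0.0128). C1qa stood at -1.51 ± 0.33 (95% interval -2.25 to -0.76) and did not pass the threshold (limma, adjusted p = 0.0518). C1qa passed with no intensity trend (0.0483), with only the arrays of the 2 states (0.00237) and without the old (0.00305) or young (0.00324) quiescent array. C1qc did not pass after cyclic loess (0.0883) or quantile normalization (0.0783). Whether the 3 subunits differed in the size of their fall was not tested.

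Nr1h3, the gene of LXR-alpha, stayed within a narrow range. It had 6.43 and 6.14 in old and young PRI-724 cells, 6.59 and 6.60 in old and young vehicle cells, and 6.37 and 6.69 in old and young quiescent cells. The values of the states lay close to one another, and the PRI-724 minus vehicle difference was -0.31 ± 0.27 (95% interval -0.92 to 0.30; limma, adjusted p = 0.612). Of 11 tested LXR target genes 0 fell and 0 rose in this comparison (limma; 4 had an unadjusted p under 0.05), with a median of -0.88. Lpl, which hydrolyses triglycerides of lipoproteins, stood at -2.07 ± 0.48 (adjusted p = 0.0648) and Apoe, the apolipoprotein secreted by macrophages and hepatocytes, at -0.995 ± 0.278 (adjusted p = 0.112).

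**Figure D1:**
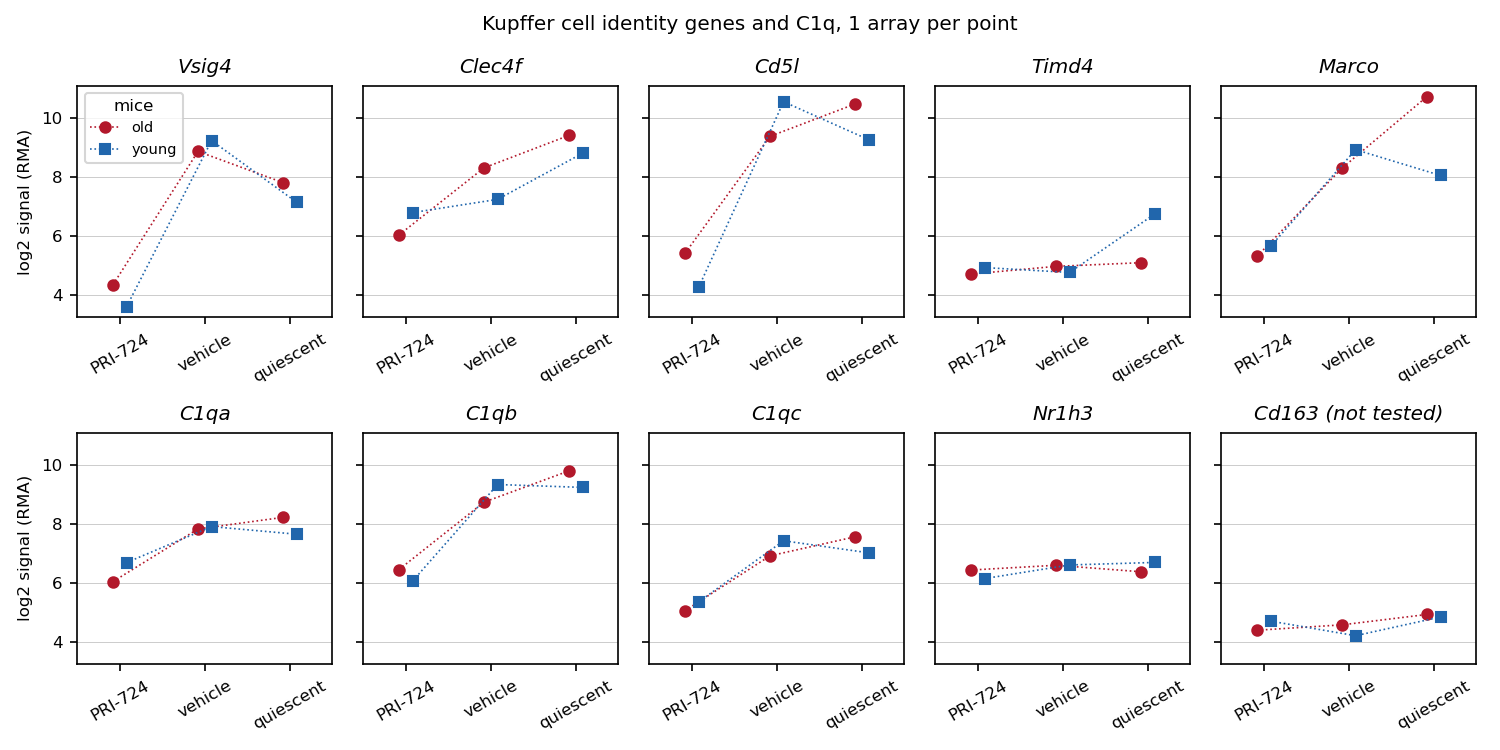
Deposited log2 signal of each member (y axis) in PRI-724, vehicle and quiescent cells (x axis), with 1 array per point, circles for old and squares for young mice, and dotted lines joining arrays of 1 age. Vsig4 had 4.35 and 3.61 with PRI-724, against 8.88 and 9.25 with vehicle, whereas Nr1h3 lay between 6.14 and 6.69 on all 6 arrays.

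Each PRI-724 array was left out in turn. Without the young PRI-724 array, 0 members and 0 of 15526 genes were called, while 7 members and 997 genes had an unadjusted p under 0.05. In that fit (limma) Vsig4 stood at -4.79 (adjusted p = 0.226), Cd5l at -4.57 (0.340), Marco at -3.83 (0.601), C1qb at -2.58 (0.319) and C1qc at -2.13 (0.384). Without the old PRI-724 array Vsig4 alone of the members was called, at -5.38 (adjusted p = 0.0353), and Cd5l stood at -5.71 (adjusted p = 0.0520), C1qb at -2.99 (0.0542), C1qc at -1.81 (0.0857) and Marco at -2.46 (0.193).

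The next comparison set long culture against the plated state, vehicle minus quiescent. After more than 20 days of culture, 1 of the 9 tested members rose and 0 fell (limma, adjusted p under 0.05), where 4.61% of all tested genes were called higher and 1.26% lower. The member that rose was Vsig4, by 1.58 ± 0.33 or 2.98-fold (limma, adjusted p = 0.0246), with 1.06 in the old pair and 2.09 in the young pair. The members' median was -0.12, and that of all tested genes 0.04. Of all 10 members 1 was higher in both ages, 3 were lower in both and 6 went in opposite directions.

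The Vsig4 call was lost without the young vehicle array (1.04, adjusted p = 0.386), the young quiescent array (1.34, 0.0850), the old PRI-724 array (0.0639) or the young PRI-724 array (0.0640), and also after cyclic loess (0.0605), quantile normalization (0.0768), with no age in the model (0.0769) and with only the arrays of the 2 states (0.0637). The members lower in both ages were Clec4f, Timd4 and Cd163. Clec4f stood at -1.10 in the old pair and -1.57 in the young pair, with a mean of -1.34 ± 0.41 (limma, adjusted p = 0.0861; called without the old vehicle array, -1.91, 0.00767). Timd4 stood at -0.13 in the old pair and -1.98 in the young pair (limma mean -1.05 ± 0.39, adjusted p = 0.148), and it was called without the old quiescent array (-1.88, 0.000793) or the old vehicle array (-1.63, 0.00955). Cd163 stood at -0.35 in the old pair and -0.64 in the young pair.

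For the C1q genes the interval of this difference was -0.81 to 0.68 for C1qa, -1.22 to 0.26 for C1qb and -0.82 to 0.58 for C1qc, none of them called (limma, adjusted p = 0.928, 0.435 and 0.859). Cd5l stood at 0.10 ± 0.51 (adjusted p = 0.934), Nr1h3 at 0.07 ± 0.27 (0.912) and Marco at -0.78 ± 0.65 (0.524). Marco was at -2.43 in the old pair and 0.88 in the young pair, and without the young quiescent array its value was -2.36 and was called (adjusted p = 0.000373). For these genes old and young cells did not share a direction, and whether the ages differ in it was not tested.

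**Figure D2:**
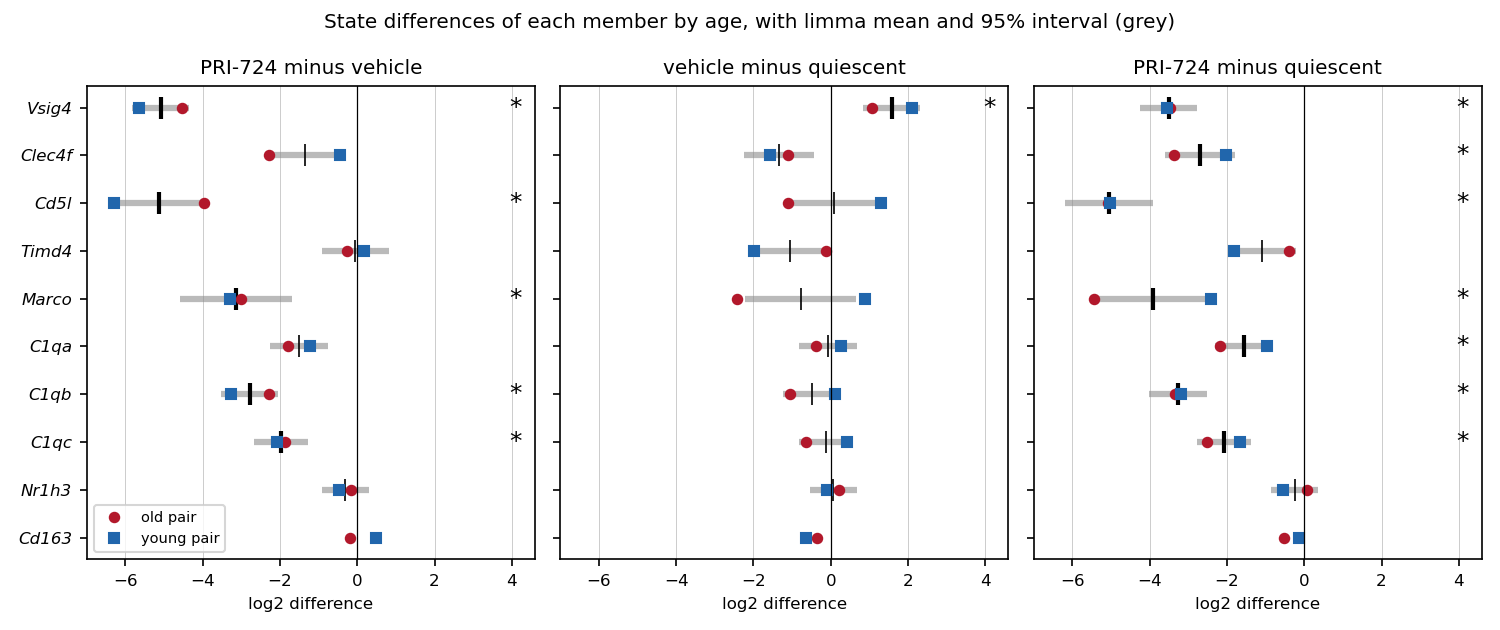
Log2 difference of each member (rows) for PRI-724 minus vehicle, vehicle minus quiescent and PRI-724 minus quiescent, with circles for the old pair, squares for the young pair, a black tick for the limma mean, a grey bar for its 95% interval and a star for an adjusted p under 0.05. Stars mark 5, 1 and 7 members in the 3 panels, and Cd163 has no mean because it was not tested.

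Against freshly plated cells, PRI-724 cells were low in most of the Kupffer genes. Of the 9 tested members 7 fell and 0 rose (limma, adjusted p under 0.05), against 2.43% of all tested genes called lower and 1.28% higher, and the members' median was -2.70 (all tested genes 0.03). This comparison shares the PRI-724 arrays with the first and the quiescent arrays with the second. Cd5l fell by 5.05 ± 0.51 or 33.0-fold (limma, adjusted p = 0.000964), with -5.07 in the old pair and -5.02 in the young pair. Marco fell by 3.92 ± 0.65 (adjusted p = 0.00996), with -5.43 in the old and -2.41 in the young pair, and Vsig4 fell by 3.51 ± 0.33 or 11.4-fold (adjusted p = 0.000756). The complement subunits C1qb, C1qc and C1qa fell too, at -3.27 ± 0.33, -2.09 ± 0.31 and -1.57 ± 0.33 (adjusted p = 0.000964, 0.00604 and 0.0315).

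Clec4f also fell here, by 2.70 ± 0.41 or 6.50-fold (limma, adjusted p = 0.00627), with -3.38 in the old pair and -2.02 in the young pair. Timd4 stood at -1.10 ± 0.39 (adjusted p = 0.183) and Nr1h3 at -0.25 ± 0.27 (0.782). Without either PRI-724 array 0 members were called, with 7 at an unadjusted p under 0.05 in each case. After cyclic loess and after quantile normalization 4 were called in each, and Clec4f (adjusted p = 0.0526 and 0.0542), Marco (0.0589 and 0.0501) and C1qa (0.0915 and 0.0893) were not. C1qa was also not called without the old quiescent array (-1.10, 0.298) or with no age in the model (0.0738). Timd4 was called without the old quiescent (-1.92, 0.000375), old vehicle (0.0250) or young vehicle (0.0253) array, and with only the arrays of the 2 states (0.0256).

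The last comparison was of age, as a mean over states. Old minus young, 0 of 9 were called higher or lower (limma; 0 had an unadjusted p under 0.05), where 0.264% of all tested genes were called higher and 0.251% lower. The widest means were 0.57 ± 0.53 for Marco (95% interval -0.61 to 1.75) and -0.55 ± 0.32 for Timd4 (-1.27 to 0.16). Single states were further apart. In quiescent cells the old minus young difference was 2.68 for Marco and -1.65 for Timd4, while in vehicle cells it was -0.63 and 0.21. Each such value compares 1 array with 1 array and was not tested. Of 11 hepatocyte genes 5 were called higher in old cells, with a median of 1.94, and after quantile normalization 1 was. After cyclic loess, and without either PRI-724 array, 0 of the 11 were called (limma; 8 and 9 had an unadjusted p under 0.05). Old minus young, 0 of 18 general macrophage genes were called (limma; 6 had an unadjusted p under 0.05).

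Over the 6 arrays, which share their 6 pools and the state differences described, Pearson's r among Vsig4, Clec4f, Cd5l, Marco and the C1q genes lay between 0.609 (Vsig4 and Clec4f) and 0.986 (Cd5l and C1qb). With these 7 genes r lay between 0.351 and 0.725 for Nr1h3, between 0.106 and 0.536 for Timd4, and between -0.127 and 0.707 for Cd163. The mean of the 10 members, each centred on its own average, was -1.50 in old and -1.50 in young PRI-724 cells, 0.53 and 0.71 in old and young vehicle cells, and 1.13 and 0.63 in old and young quiescent cells.

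Among 13724 named genes outside the group, 75 correlated with that mean at r of 0.95 or more. The closest was Folr2, the folate receptor beta of resident macrophages (r = 0.997, n = 6 arrays), which had 5.64 and 5.94 in old and young PRI-724 cells, 8.69 and 8.96 in old and young vehicle cells, and 9.37 and 8.68 in old and young quiescent cells. After it came Paqr9 (0.996), Lcp2, an adaptor of immune receptor signalling (0.994), Lpxn, a paxillin relative of blood cells (0.993), Bcl2a1c (0.993), the actin-associated Pdlim4 (0.993), Pla2g7, the platelet-activating factor acetylhydrolase (0.992), and Siglec1, the sialoadhesin of tissue macrophages (0.991). Paqr9 and Pdlim4 ran over a narrow range, from 5.30 to 6.08 and from 5.25 to 6.07.

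**Figure D3:**
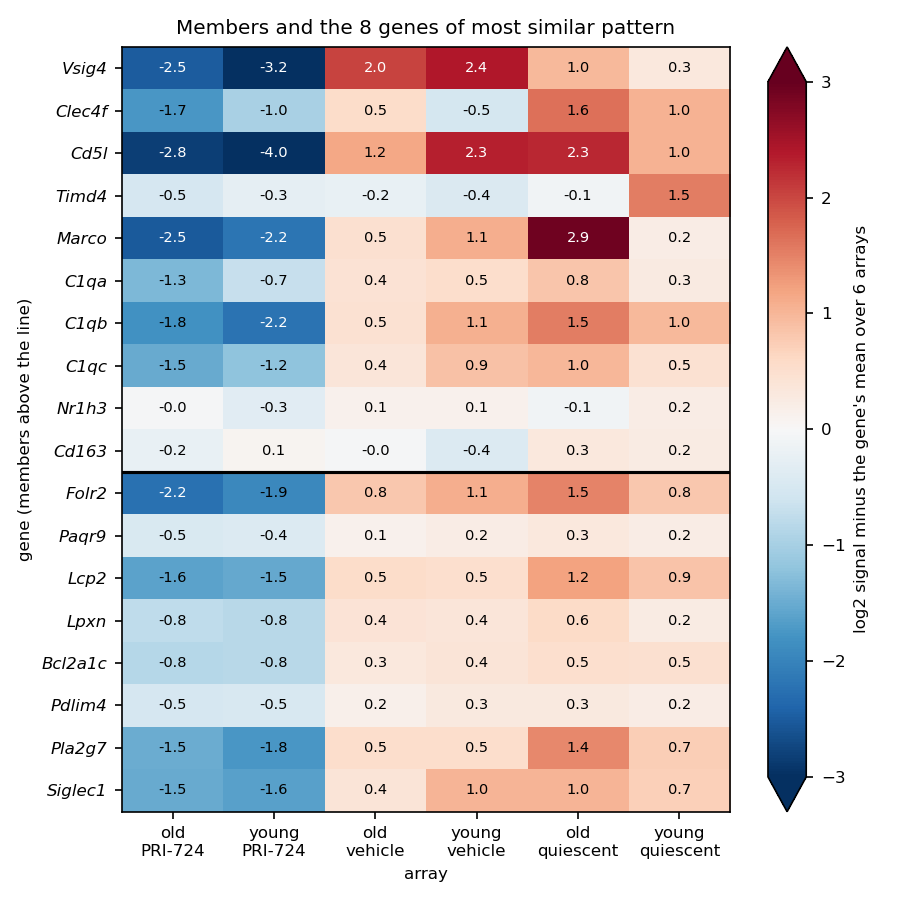
Log2 signal minus each gene's own mean over the 6 arrays (colour and printed value) for the 10 members above the line and the 8 genes most like their mean profile below it, with arrays in columns. Vsig4, Clec4f, Cd5l, Marco and the 3 C1q genes are blue, below their mean, in both PRI-724 columns, as are the 8 genes. Timd4 and Nr1h3 also lie below their mean in both, by less, and Cd163 only in the old PRI-724 column.

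Other genes of resident macrophages behaved much as the members did. Of 13 further Kupffer cell genes tested, 7 fell with PRI-724 relative to vehicle and 0 rose, and all 13 were lower in both ages (median -1.85, against -0.05 for all genes). For all 15526 tested genes the shares called were 1.93% lower and 0.271% higher, and 5435 genes were lower in both ages. Clec1b, a C-type lectin gene, fell, at -3.85 ± 0.35, and so did Folr2 at -3.04 ± 0.32, Cdh5, the gene of an endothelial cadherin, at -2.51 ± 0.44, and Adgre1, which encodes a defining surface antigen of mouse macrophages, at -2.47 ± 0.31. Of 9 Kupffer transcription factor genes 3 fell, namely Spic, needed for iron-recycling macrophages, at -2.02 ± 0.27, Tfec at -1.79 ± 0.32 and Irf8 at -1.52 ± 0.33, while Maf stood at -1.76 ± 0.46 (limma, adjusted p = 0.0948). Of the 9 transcription factor genes 2 were called after cyclic loess, 1 after quantile normalization, 3 without the old PRI-724 array and 0 without the young one (limma; 5 had an unadjusted p under 0.05).

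Of 18 general macrophage and phagocyte genes 14 fell, 0 rose and all 18 were lower in both ages, with a median of -2.22. Among all tested genes 1.93% were called lower and 0.271% higher, and 5435 of 15526 were lower in both ages. Msr1, a scavenger receptor, stood at -3.44 ± 0.34, Mpeg1, a pore-forming protein of phagocytes, at -3.41 ± 0.31, Mrc1, the mannose receptor, at -3.36 ± 0.31 and Ctss, a lysosomal protease, at -2.999 ± 0.367, and all 4 were called. The broad markers fell too, Csf1r, the receptor for CSF1, at -2.78 ± 0.42 and Ptprc, the leukocyte antigen CD45, at -2.05 ± 0.27. The mean signal of the 18 genes was 6.44 and 5.99 in old and young PRI-724 cells, 8.33 and 8.51 in old and young vehicle cells, and 8.62 and 8.15 in old and young quiescent cells. Of 9 genes of lipid-associated macrophages 4 fell, among them Clec7a, the beta-glucan receptor, at -4.09 ± 0.50 and Mmp12, the elastase of macrophages, at -3.50 ± 0.46. Monocyte and neutrophil genes had 0 of 7 called (limma; 2 with an unadjusted p under 0.05) and a median of 0.22, and dendritic cell genes 0 of 7 called (1) and a median of 0.39. These 7 and 7 were the tested ones of 12 and 10 listed genes. Some of them were dim on all arrays, near the 4.70 of the filter, which leaves little room for a fall. Mpo, for example, ran from 4.61 to 5.19 and Flt3 from 4.52 to 5.32. After cyclic loess 8 of the 18 phagocyte, 4 of the 13 Kupffer and 1 of the 9 lipid-associated genes were called, and without the old PRI-724 array 7, 2 and 0. Without the young PRI-724 array 0 of each were called (limma), with 15 phagocyte, 9 Kupffer and 7 lipid-associated genes at an unadjusted p under 0.05.

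In vehicle relative to quiescent cells, where 1.26% of all tested genes were called lower and 4.61% higher, 2 of the 13 Kupffer genes fell, Fcna, which encodes ficolin A, at -1.49 ± 0.35 and Il18bp, a decoy for an interleukin, at -1.33 ± 0.31. Of the 18 phagocyte genes 2 fell, Ms4a7 at -1.46 ± 0.27 and Cd14, the lipopolysaccharide co-receptor, at -1.23 ± 0.30, with a list median of 0.05. Among the transcription factors Spic fell by 1.64 ± 0.27 and Id1, an inhibitor of DNA binding, rose by 1.52 ± 0.31. Of 11 LXR targets 2 fell, the cholesterol exporter Abca1 at -2.22 ± 0.54 and Apoc1 at -2.06 ± 0.40. Apoc1 was highest on the old quiescent array (9.51), where the mean of the hepatocyte genes described below also peaked (9.01). The part of hepatocyte RNA in Apoc1 was not tested in this or any other comparison. H2-Ab1, an MHC class II chain, fell by 2.83 ± 0.39, the 1 call among 7 dendritic cell genes. After cyclic loess 2 phagocyte genes, 1 LXR target and 2 transcription factor genes were called. After quantile normalization 0 of the phagocyte genes and 0 of the LXR targets were (limma; 4 and 8 had an unadjusted p under 0.05), and of the transcription factor genes 1 was called lower and 0 higher. Without either PRI-724 array 0 of the LXR targets (limma; 6 had an unadjusted p under 0.05) and 1 of the phagocyte genes were called in each case.

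PRI-724 relative to quiescent cells, 9 of the 13 Kupffer genes and 14 of the 18 phagocyte genes fell and 0 rose, with medians of -2.28 and -2.15. Over all tested genes 2.43% were called lower and 1.28% higher. Of 14 markers of liver sinusoidal endothelium 9 fell and 0 rose, with a median of -2.14. Clec1b stood at -5.14 ± 0.35, Folr2 at -3.24 ± 0.32 and Cdh5, also an endothelial marker, at -3.21 ± 0.44. Slc40a1, the iron exporter ferroportin, stood at -2.90 ± 0.42, and all 4 genes were called. Among the transcription factors Spic, Irf8 and Cebpa fell, at -3.65 ± 0.27, -1.93 ± 0.33 and -1.23 ± 0.29. Spic had 4.64 and 4.59 in old and young PRI-724 cells, 6.62 and 6.64 in old and young vehicle cells, and 8.04 and 8.49 in old and young quiescent cells, so that the 3 states did not overlap. Of the 11 LXR targets 4 fell, Abca1 (-3.15 ± 0.54), Apoc1 (-2.09 ± 0.40), Mylip, which degrades the LDL receptor (-1.73 ± 0.38), and Apoe (-1.67 ± 0.28), beside the uncalled -0.25 ± 0.27 of Nr1h3 itself. Without the old PRI-724 array 4 Kupffer genes, 5 phagocyte genes, 2 transcription factor genes and 0 LXR targets were called, and without the young one 0 of each (limma).

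Of 16 other complement genes tested with PRI-724 relative to vehicle 6 fell and 0 rose, with a median of -1.21. Among all tested genes 1.93% were called lower and 0.271% higher. The receptor genes for the peptides C3a and C5a fell, C3ar1 at -2.94 ± 0.31 and C5ar1 at -1.77 ± 0.32, and so did the properdin gene Cfp, at -1.87 ± 0.34. Cd59a, an inhibitor of the membrane attack complex, fell by 3.49 ± 0.53, and in vehicle relative to quiescent cells it rose by 2.85 ± 0.53. The integrin chains Itgam and Itgax, which form complement receptors on phagocytes, fell as well, at -2.05 ± 0.44 and -2.49 ± 0.44. The gene of the protease that C1q activates, C1ra, stood at 0.07 ± 0.26 and C4b, which acts after it, at 0.19 ± 0.45. Of 14 genes of dying-cell uptake 4 fell, the scavenger receptors Cd36 (-3.74 ± 0.41), Stab1 (-3.56 ± 0.42) and Stab2 (-3.45 ± 0.59) and the bridging ligand Pros1 (-1.81 ± 0.37). After cyclic loess 1 of the 16 complement genes and 2 of the 14 uptake genes were called. Without the young PRI-724 array 0 of either were (limma), with 7 and 6 at an unadjusted p under 0.05, and without the old one 2 complement and 4 uptake genes were.

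Of 14 signals that macrophages receive from their neighbours 0 were called with PRI-724 relative to vehicle (limma; 7 had an unadjusted p under 0.05), with a median of -0.53. In both ages 9 of the 14 were lower and 2 were higher, where 5435 of 15526 tested genes were lower and 4009 higher in both. The largest differences were those of Bmp6 (-1.575 ± 0.361; limma, adjusted p = 0.0593), Gdf2 (-1.305 ± 0.353), Icam1 (-1.006 ± 0.325) and Bmp2 (-0.973 ± 0.323). Csf1, the growth factor macrophages depend on, had 11.75 and 11.76 in old and young PRI-724 cells, 11.69 and 11.92 in old and young vehicle cells, and 11.81 and 11.64 in old and young quiescent cells. Its difference was -0.05 ± 0.16, beside -2.78 ± 0.42 for the receptor gene Csf1r. In vehicle relative to quiescent cells 1 of these 14 signals rose and 1 fell (limma, adjusted p under 0.05). Over all tested genes 4.61% were called higher and 1.26% lower. Gdf2 rose by 1.78 ± 0.35 (limma, adjusted p = 0.0207). Csf2, the gene of GM-CSF, fell by 3.02 ± 0.41, with 3.71 and 4.01 in old and young vehicle cells and 7.57 and 6.19 in old and young quiescent cells. After cyclic loess and after quantile normalization 0 of the 14 were called higher and 1 lower.

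**Figure D4:**
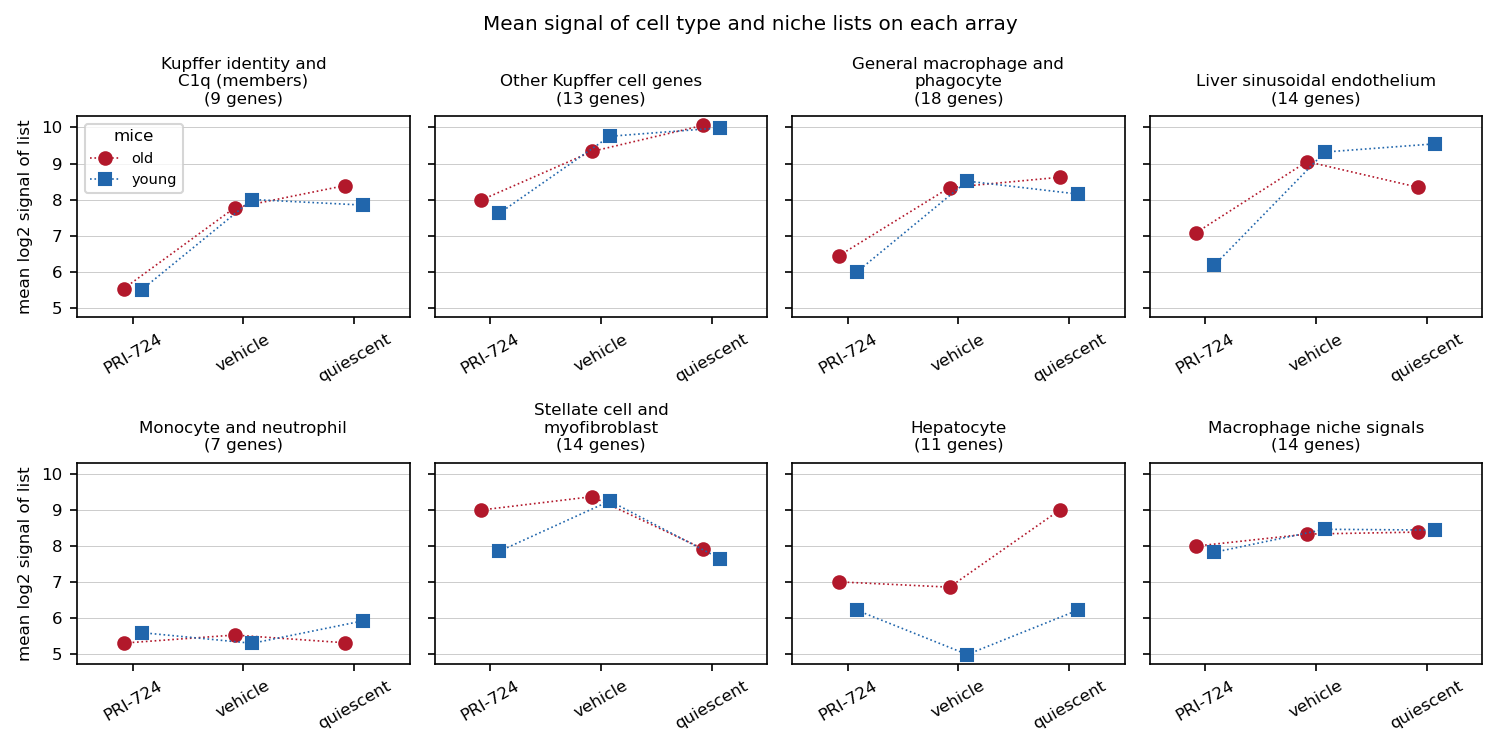
Mean log2 signal of the tested genes of 8 lists (y axis) in PRI-724, vehicle and quiescent cells (x axis), with 1 array per point, circles for old and squares for young mice, and dotted lines joining arrays of 1 age. The members, other Kupffer genes, phagocyte genes and sinusoidal endothelial genes are lowest on the PRI-724 arrays, as are niche signals over a narrower range. The hepatocyte list separates the old from the young arrays within each state.

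Genes of another liver cell moved with the members. Of 14 markers of liver sinusoidal endothelium, which lines the capillaries of the liver, 12 fell with PRI-724 relative to vehicle and 0 rose, and all 14 were lower in both ages (median -2.39). Among all tested genes 1.93% were called lower and 0.271% higher, and 5435 of 15526 were lower in both ages. The mean signal of the 14 markers was 7.09 and 6.17 in old and young PRI-724 cells, 9.05 and 9.32 in old and young vehicle cells, and 8.34 and 9.55 in old and young quiescent cells. Oit3 fell by 4.76 ± 0.35, and Lyve1, a hyaluronan receptor, fell by 3.30 ± 0.71. Kupffer and endothelial lists share Cdh5, and Stab2 stands in both the uptake and the endothelial list. The complement list shares Itgam with the phagocyte, Itgax with the lipid-associated and Fcna with the Kupffer list. Vcam1 is in the Kupffer and niche lists, Lpl in the LXR and lipid-associated lists, and Bmp2 in the niche and endothelial lists. Counts of lists that share genes are not independent. What part endothelial RNA had in the falls of the members was not tested. After cyclic loess 3 of the 14 were called, without the old PRI-724 array 9, and without the young PRI-724 array 0 (limma; 11 had an unadjusted p under 0.05).

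Stellate cell genes had 1 of 14 called lower, Lrat, the retinyl ester synthase, at -1.69 ± 0.31, and a median of -0.79. Of the 14, 7 had an unadjusted p under 0.05 (limma), and 11 were lower and 0 higher in both ages. Larger in size but not called were Col1a1 at -1.92 ± 0.48 (limma, adjusted p = 0.0803) and Acta2 at -1.815 ± 0.413 (0.0573). The mean signal of the 14 stellate genes was 9.00 and 7.85 in old and young PRI-724 cells, 9.37 and 9.25 in old and young vehicle cells, and 7.93 and 7.64 in old and young quiescent cells. In the old pair this list's median was -0.42, against -2.28 for the 9 tested members, and in the young pair -1.35, against -2.08. Hepatocyte genes had 0 of 11 called (limma; 4 with an unadjusted p under 0.05) and a median of 0.58, and their mean signal was 7.01 and 6.23 in old and young PRI-724 cells, 6.86 and 4.99 in old and young vehicle cells, and 9.01 and 6.23 in old and young quiescent cells. That hepatocyte signal was highest on the old quiescent array, where Marco, Clec4f, C1qa, C1qb, C1qc and Cd163 also peaked. The part of hepatocyte RNA in the values of these members was not tested. Of 7 cholangiocyte and 12 lymphocyte genes listed, 3 and 4 were tested, and 0 were called (limma; 0 had an unadjusted p under 0.05). In vehicle relative to quiescent cells 8 of the 14 stellate genes rose and 1 fell, 3 of the 11 hepatocyte genes fell and 2 of the 14 endothelial genes rose. Among all tested genes 4.61% were called higher and 1.26% lower in this comparison. After cyclic loess 5 stellate and 1 endothelial gene were called higher and 1 hepatocyte gene lower, and after quantile normalization 4 stellate and 1 endothelial gene higher and 1 hepatocyte gene lower. Their part in the members' values of that comparison was not tested.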

How the data were processed

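Total RNA came from RNeasy columns and was labelled by the WT PLUS kit, per the labels' protocols. The values are log2 signals that the authors made with Affymetrix Expression Console and RMA, per the submitters' processing notes, and their versions were not stated in the sources used here. The platform's table named 1 gene for 23521 of 41345 probe sets, several for 1814 and none for 16010, and the last 2 kinds were not used. The probe set with the highest mean stood for a gene, which gave 22180 genes. The 30% with the lowest mean were left out.

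Differences were computed from the deposited log2 values with limma 3.58.1 in R 4.3.3, on age and state as additive terms with an intensity trend (residual df 2, prior df 7.76), and adjusted by Benjamini-Hochberg over the 15526 genes tested, with a threshold of 0.05. The script was tested on simulated data. All 10 members are named, with up to 4 genes of each list by absolute mean difference, some fixed markers, and the 8 genes most correlated with the members' mean. Csf1, C1ra, C4b, C5ar1 and Cfp were named after their values were seen. The members, lists and tests were chosen with earlier results of these data known. Promoters came from RefSeq, GRCm38.p6. The number of arrays limits the precision. Alternatives were other filters, averaged probe sets, no trend, no covariate, only the arrays compared, cyclic loess, quantile normalization and each array left out. Figures used Python 3.11.15, pandas 2.3.3 and matplotlib 3.10.9.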

Additional observations from a re-analysis of the deposited data

Results flagged for a closer look

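Some of the values above went one way in old cells and the other way in young cells, each from 1 array against 1 array, and the difference between the ages was not tested. For PRI-724 minus vehicle these were Timd4, at -0.26 in the old pair and 0.17 in the young pair, and Cd163, at -0.18 and 0.50. For vehicle minus quiescent, Marco stood at -2.43 in the old pair and 0.88 in the young pair, Cd5l at -1.10 and 1.29, C1qb at -1.06 and 0.10, C1qc at -0.65 and 0.41, C1qa at -0.39 and 0.26, and Nr1h3 at 0.22 and -0.09, old pair before young pair. For PRI-724 minus quiescent, Nr1h3 stood at 0.058 in the old pair and -0.55 in the young pair. In vehicle minus quiescent the Cd5l, Marco and C1q values were below 0 in the old pair and above 0 in the young pair, and the 2 pairs share no array.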

How the results depend on the processing

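Of 9 tested members, the number called with PRI-724 relative to vehicle was 5 in the report, 3 after cyclic loess, 3 after quantile normalization, and 0 to 7 with each array left out, with 0 members called higher in each of these. With vehicle relative to quiescent it was 1 in the report, 0 with no age in the model, with only the arrays of the 2 states, after cyclic loess and after quantile normalization, and 0 to 3 with each array left out. With PRI-724 relative to quiescent it was 7 in the report, 4 after cyclic loess, 4 after quantile normalization and 0 to 8 with each array left out. Old minus young it was 0 under every alternative run. Over all genes the calls ranged from 0 to 968 (341 in the report) for PRI-724 minus vehicle, from 114 to 1230 (911) for vehicle minus quiescent, from 0 to 1064 (577) for PRI-724 minus quiescent and from 0 to 343 (80) for old minus young. Some values that were not called changed sign. Vehicle minus quiescent, Cd5l was -0.094 after cyclic loess and -0.021 after quantile normalization, and Nr1h3 -0.16 and -0.19. Old minus young, C1qb was -0.029 after cyclic loess. With each array left out, Timd4 ranged from -0.62 to 0.52 for PRI-724 minus vehicle. For vehicle minus quiescent the ranges were -1.09 to 1.28 for Cd5l, -2.36 to 0.81 for Marco, -0.54 to 0.40 for C1qa, -1.02 to 0.055 for C1qb, -0.59 to 0.36 for C1qc and -0.16 to 0.30 for Nr1h3. For old minus young they were -0.077 to 0.84 for Clec4f, -0.009 to 1.19 for Cd5l, -0.48 to 1.17 for Marco, -0.36 to 0.25 for C1qa, -0.10 to 0.48 for C1qb, -0.40 to 0.12 for C1qc and -0.16 to 0.14 for Nr1h3. The causes were not tested. Where an array is left out, the lone array of its state is assumed to vary like the others. Age was the block in the fits of state differences, and state was the block in the fits of old minus young. The fits with no covariate left that block out, and the labels give no replicate numbers. The list counts after normalization were added after seeing the data.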
